A study of Mus musculus with 12 samples.

Results

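The bone marrow of triple heterozygous TFD mice was compared with that of WT mice by RNA-Seq. These are the TFD and WT libraries of the series as their sample labels name them, 5 of 12 samples, and 11 of the 12 have a count column in the deposited table. The library of TFD replicate 3 is not used here. The study crossed leukemia-associated alleles of Tet2, Dnmt3a and Flt3 in C57BL/6 mice and sequenced BM RNA from 4 genotypes, which were WT, the double mutants DF and TF, and TFD. The question was which genes and pathways stood higher or lower when all of the alleles were present. The 3 WT libraries came from C57BL/6 mice with the genetic condition "Wild type", which the study's methods say came from a core facility, while the mutants were bred by crossing. The 2 TFD libraries came from mice with one null allele of Tet2 in every cell (Tet2+/-), the internal tandem duplication in one allele of Flt3 (Flt3 ITD/+) and one floxed allele of Dnmt3a with the MxCre transgene (Dnmt3a Flox/+). MxCre is driven by an interferon-inducible promoter, so that poly(I:C) switches on the recombinase in blood-forming cells and in some other cells. The study's methods give poly(I:C) to all animals, WT included, at an age of 8 to 10 weeks and place the work on blood formation 8 to 9 weeks later, so that both groups share this treatment. The labels give no age at which the marrow for RNA was taken. The labels call the material mononuclear cells and the methods call it whole BM cells. Globin RNA was depleted before library preparation, and no globin gene was in the table.

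TET2 oxidizes methylated cytosine and DNMT3A places methyl groups on DNA de novo, and loss of either is frequent in clonal hematopoiesis. FLT3 is a receptor tyrosine kinase of early progenitors, and its internal tandem duplication gives a receptor that signals without ligand, in part through STAT5. Marrow holds stem and progenitor cells together with their descendants: neutrophils and monocytes, dendritic cells, B cell precursors, small numbers of T and NK cells, erythroblasts and megakaryocytes. Each lineage carries genes by which its share of the RNA can be followed. In bulk marrow, fewer cells of a type and less RNA per cell cannot be told apart.

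The WT libraries held 11682062, 8274153 and 10861144 counts over the genes of the table, and the TFD libraries 15496378 and 11115255. WT replicate 3 and TFD replicate 2 carried the Xist RNA of females and the other 3 libraries carried Y-linked RNA, so each genotype held both sexes. Between the TFD libraries 381 genes were more than 2-fold apart, against 123 to 178 genes between pairs of WT libraries. Of the 381, 66 were among the genes called higher in TFD and 33 among those called lower. The ribosomal RNA precursor Rn45s took the largest share of counts in TFD replicate 2, 5.12%, and at most 3.43% in the WT libraries. Nothing in the labels says that replicates came from separate animals or litters, so the p values measure a spread between libraries. That spread was estimated over all 11 libraries with a count column and not from the TFD pair alone.

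Levels are given as CPM, the count of a gene relative to the scaled size of its library (TMM factors). The log2 change of a gene is TFD minus WT in the fit. A gene was called when the Benjamini-Hochberg adjusted p of edgeR's quasi-likelihood test, fitted to all 11 libraries, was under 0.05. Of 12175 genes tested, 1789 were higher in TFD than in WT, 14.7% of all, and 1416 were lower, 11.6% of all. At least 8-fold changes were found in 44 of the genes called higher and in 107 of those called lower. The median log2 change was 0.85 among genes called higher, −0.92 among genes called lower and 0.01 over all genes tested. In 1771 of the 1789 both TFD libraries were above every WT library, as they were in 3164 of all genes tested, and in 1413 of the 1416 both were below, as in 2858 of all. The gene lists that follow are read against these shares. Without TFD replicate 2 the count of genes called lower fell to 935.

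**Figure D1:**
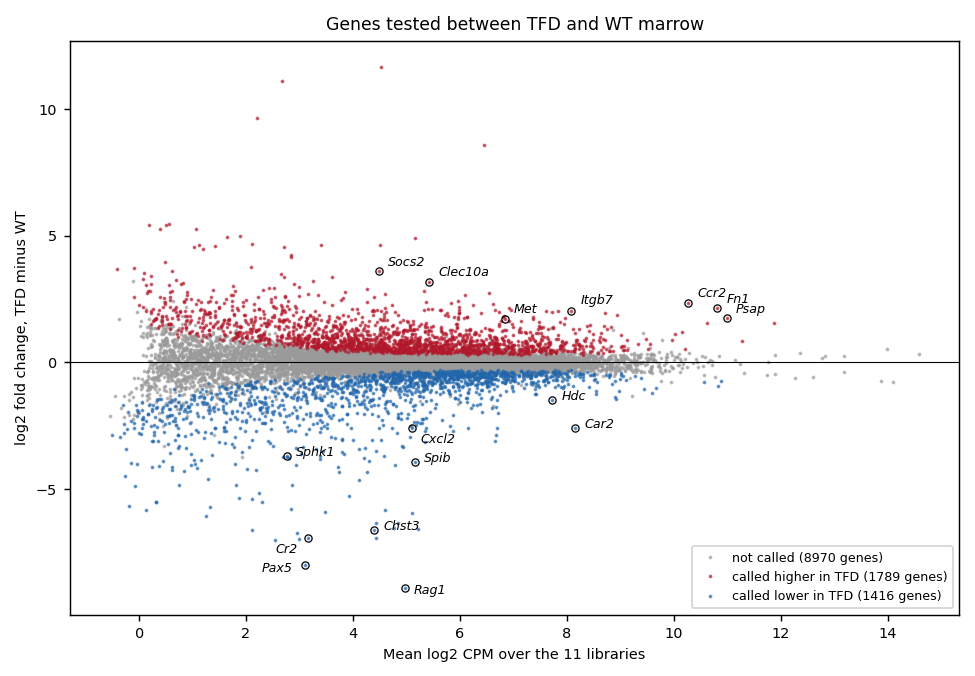
Log2 fold change between TFD and WT (vertical axis) against the mean log2 CPM over the 11 libraries (horizontal axis), 1 point for each of the 12175 genes tested. Red points are the 1789 genes called higher and blue points the 1416 called lower, and circles mark genes whose symbols are printed. The B cell genes Rag1, Pax5 and Cr2 lie at the bottom, and Ccr2, Fn1 and Psap are among the most abundant genes called higher.

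The targeted genes were examined first. Tet2 stood at 152, 169 and 148 CPM in WT replicates 1 to 3 and at 163 and 209 CPM in the TFD libraries, a log2 change of 0.25 (SE 0.17, adjusted p = 0.318). Dnmt3a stood at 30.9, 50.4 and 57.8 CPM in WT and at 54.4 and 58.6 CPM in TFD, a log2 change of 0.29 (SE 0.23, adjusted p = 0.382). Neither transcript was detectably lower in TFD, and counts over whole genes do not tell a deleted from an intact allele. Flt3 stood at 30.1, 22.5 and 20.8 CPM in WT and at 58.8 and 130.4 CPM in TFD. Both TFD libraries were above the WT range, and they differed from each other. The log2 change of Flt3 was 1.94 (SE 0.30, adjusted p = 0.000552), and without TFD replicate 2 it was 1.27.

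Genes of classical monocytes were higher in TFD. Of 40 markers tested, 26 were called higher and 0 lower, 65% against 14.7% of all genes, and their median log2 change was 1.07. At an unadjusted p under 0.05, 1 marker was lower, and DESeq2 called 1 lower, as did the fit without TFD replicate 1. Ccr2 (mm10, chr9:124102183-124109140), the chemokine receptor through which monocytes leave the marrow, stood at 262, 283 and 297 CPM in WT and at 1552 and 1310 CPM in TFD. Csf1r, the receptor for the monocyte growth factor M-CSF, stood at 175, 166 and 156 CPM in WT and at 424 and 499 CPM in TFD. F13a1, the coagulation factor XIII subunit of monocytes, stood at 622, 736 and 613 CPM in WT and at 1706 and 2128 CPM in TFD. In each of these genes both TFD libraries were above all WT libraries. The log2 changes were 2.35 for Ccr2 (SE 0.18, adjusted p = 4.63e-06), 1.48 for Csf1r (SE 0.13, adjusted p = 1.21e-05) and 1.54 for F13a1 (SE 0.16, adjusted p = 2.89e-05). Ccr2 had the largest change of the list. Ms4a6c, a membrane protein of monocytes, rose 3.64-fold from 140 to 161 CPM in WT to 568 and 538 CPM in TFD. Fn1, which encodes fibronectin, rose 4.43-fold and reached 2851 and 2241 CPM in TFD. Cx3cr1, the fractalkine receptor, rose 4.88-fold. The summed level of the list was between 16340 and 21101 CPM in WT and was 34237 and 32568 CPM in TFD.

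Among 29 myeloid transcription factors, 11 were called higher and 2 lower, with a median log2 change of 0.40, and without WT replicate 1 or 3, or with the replicate block, the count called lower was 1. Irf8 stood at 143, 123 and 160 CPM in WT and at 365 and 401 CPM in TFD, a log2 change of 1.43 (SE 0.13, adjusted p = 1.75e-05). Klf4, which is needed for inflammatory monocytes, stood at 70, 45 and 74 CPM in WT and at 255 CPM in both TFD libraries, a log2 change of 2.01 (SE 0.17, adjusted p = 1.08e-05). Both TFD libraries were thus above all WT libraries for both genes. Batf3, a factor of cross-presenting dendritic cells, rose 7.05-fold (adjusted p = 0.00403) from at most 1.07 CPM in WT to 4.06 and 4.01 CPM in TFD. Its log2 change was 2.82, and 3.90 without WT replicate 1, the highest of the WT libraries. The largest change of the list was the −2.83 of Bhlhe41 (SE 0.63, adjusted p = 0.00544), a repressor that B-1 and some myeloid cells express, from 4.66 to 5.07 CPM in WT to 0.625 and 0.713 CPM in TFD. Cebpa, a factor of granulocyte and monocyte progenitors, rose 2.87-fold (adjusted p = 1.2e-05) and Irf5, a factor of Toll-like receptor signalling, rose 3.08-fold (adjusted p = 4.63e-06). Spi1, which encodes PU.1, was 0.28 higher on the log2 scale (SE 0.16, adjusted p = 0.228), and TFD replicate 2, at 119 CPM, lay within the WT range of 97.3 to 142 CPM. Without WT replicate 1 it was called (adjusted p = 0.0315).

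The letters of a PU.1 site, GAGGAAGT, were looked for on both strands in the RefSeq promoter windows of GRCm38.p6, which run from 250 bases before to 50 bases after each gene's start. They were found in 4 of the 34 monocyte markers with a window (11.8%), in 3.28% of all 27025 windows and in 3.5% of the 9245 windows of genes tested. The stretch below is from S100a4, a calcium-binding protein of monocytes that rose 3.02-fold (adjusted p = 0.000125) and had the largest change among the called markers with a match. It lies at chr3:90603776-90603805 on the plus strand, the match begins 18 bases into the gene, and the capitals mark the reverse complement of the motif.
S100a4: ctctattcagcACTTCCTCtctcttggtct
Such a match is a description of the letters and not a site known to be bound.

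**Figure D2:**
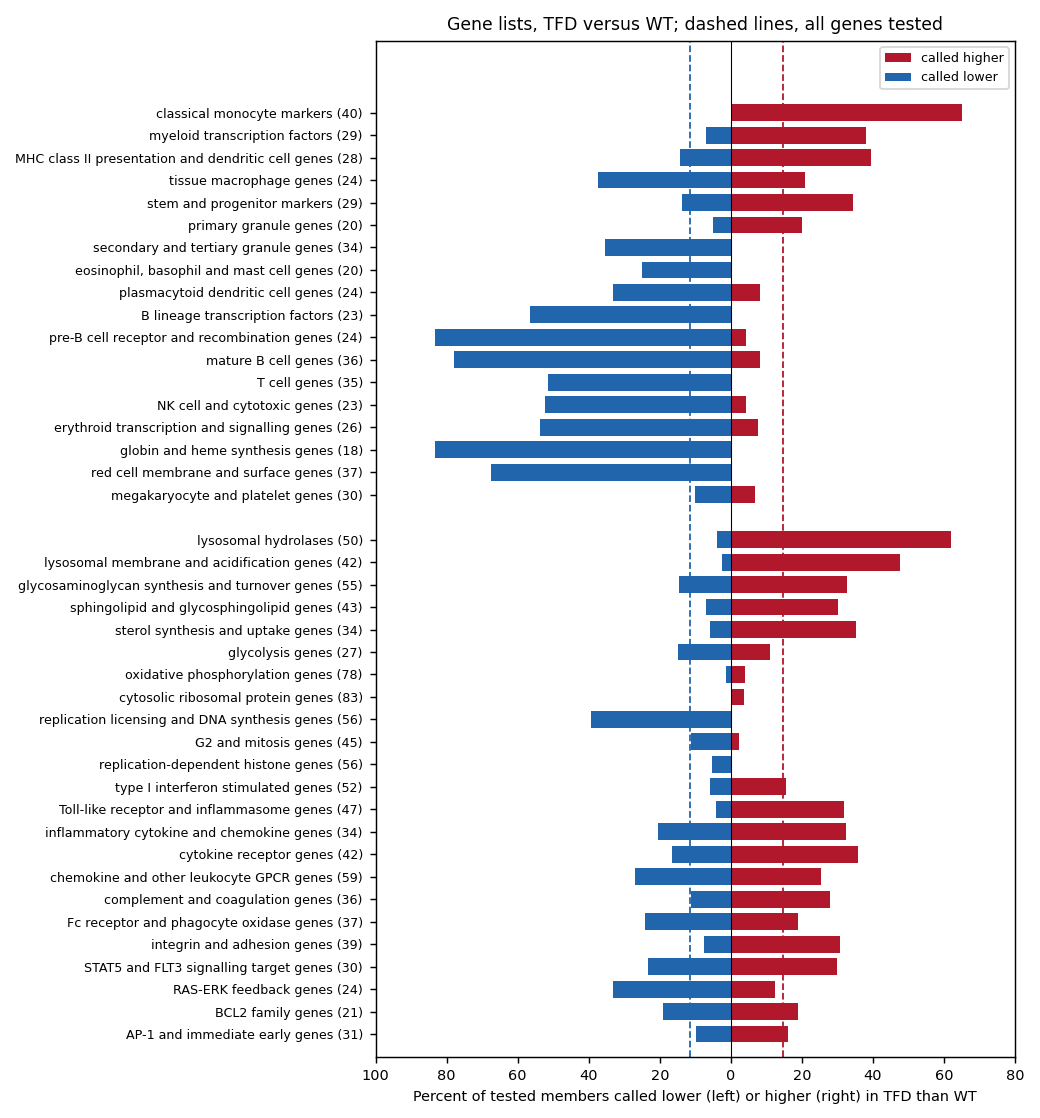
Percent of the tested members of each gene list called higher (red, right) or lower (blue, left) in TFD than in WT, with the number tested in parentheses; dashed lines mark 14.7% and 11.6%, the shares over all genes tested. Monocyte and lysosomal lists extend to the right, and B cell, T cell, NK cell and erythroid lists to the left.

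Antigen presentation genes were called higher more often than all genes, 39.3% against 14.7%. The share called lower, 14.3%, was near the 11.6% of all genes. Of 28 MHC class II and dendritic cell genes, 11 were called higher and 4 lower, with a median log2 change of 0.94, and without TFD replicate 2 the count called higher was 7. The count called lower was 1 without TFD replicate 1 and 2 without WT replicate 2. H2-DMa, which loads peptides on class II molecules, stood at 28.9, 24.3 and 23.1 CPM in WT and at 89.2 and 87.8 CPM in TFD, and it rose 3.47-fold (adjusted p = 4.18e-05). The class II chain H2-Aa was 1.28 higher on the log2 scale with both TFD libraries above the WT range, yet the difference was not called (SE 0.46, adjusted p = 0.0588). Cd74, the invariant chain, was 1.14 higher and was not called either (SE 0.49, adjusted p = 0.108). Both were called in a fit of only WT and TFD (adjusted p = 0.000191 and 0.00371). Xcr1, the chemokine receptor of cross-presenting dendritic cells, had the largest change of the list at 2.82 (SE 0.66, adjusted p = 0.00747), on 0.0821 to 0.619 CPM in WT and 2.44 and 1.78 CPM in TFD. Without WT replicate 2 its change was 3.56. H2-Ob, the B cell subunit of the modifier H2-O, fell 4.39-fold, from 43.2 to 51.8 CPM in WT to 11.2 and 10.8 CPM in TFD (adjusted p = 0.000501).

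Macrophage genes were called lower more often than all genes, 37.5% against 11.6%, and the share called higher was 20.8% against 14.7%. Of 24 tested, 5 were called higher and 9 lower, and the latter count was 3 without TFD replicate 2 and 5 without WT replicate 3. Clec10a, a lectin of monocyte-derived macrophages and dendritic cells, stood at 8.38, 9.28 and 8.6 CPM in WT and at 72.5 and 85.8 CPM in TFD, a log2 change of 3.18 (SE 0.36, adjusted p = 6.64e-05). Mrc1, the mannose receptor, stood at 42.3, 40.7 and 71.4 CPM in WT and at 129 and 322 CPM in TFD. Its log2 change was 2.13 (SE 0.38, adjusted p = 0.00141), and 1.33 without TFD replicate 2. Vcam1, an adhesion molecule of marrow macrophages and stroma, fell by 0.74 (SE 0.22, adjusted p = 0.0234), a call that was lost without either TFD library (adjusted p = 0.083 and 0.104) and without WT replicate 3 (adjusted p = 0.0778). C1qa, a complement chain of resident macrophages, was −1.29 (SE 0.45) and lay just outside the threshold (adjusted p = 0.05003), and 7 of 14 alternative settings called it, DESeq2 among them (adjusted p = 0.0128).

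Genes of stem and progenitor cells were called higher more often than all genes, and the share called lower was near that of all genes. Of 29 tested, 10 were called higher and 4 lower, 34.5% and 13.8% against 14.7% and 11.6% of all genes, with a median log2 change of −0.0036, and without TFD replicate 2 the counts were 6 and 2. Kit, the stem cell factor receptor, stood at 75.2, 76.2 and 80 CPM in WT and at 75.2 and 78.7 CPM in TFD. Cd34, a sialomucin of progenitors, stood at 42.1, 34.2 and 36.2 CPM in WT and at 136 and 125 CPM in TFD. The levels of Kit overlapped and those of Cd34 did not. The log2 change of Cd34 was 1.79 (SE 0.23, adjusted p = 0.00014). Cd93, a C-type lectin of progenitors and monocytes, rose 2.19-fold (adjusted p = 0.00169). Gfi1b, a repressor of erythroid and megakaryocyte cells that the list also holds, had the largest change, −2.57 (SE 0.55, adjusted p = 0.0044), and −3.27 without TFD replicate 1.

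Neutrophil genes differed between the TFD libraries. Secondary and tertiary granule genes were called lower more often than all genes, 35.3% against 11.6%, and a difference between granule classes was not tested. Of 20 primary granule genes, 4 were called higher and 1 lower, 20% and 5% against 14.7% and 11.6% of all genes. The count called higher was 2 without TFD replicate 1 or WT replicate 2 and 7 in a fit of only WT and TFD. The count called lower was 3 without TFD replicate 1, 0 without TFD replicate 2 and 2 by DESeq2. The gene called lower was Vamp5, a SNARE protein, which fell 1.87-fold (adjusted p = 0.00876) and was not called without TFD replicate 2 (adjusted p = 0.0856). Mpo, the myeloperoxidase of the primary granule, stood at 1787, 1564 and 1725 CPM in WT and at 3702 and 2412 CPM in TFD. Its log2 change of 0.85 (SE 0.23, adjusted p = 0.0176) was 0.51 and not called without TFD replicate 1 (adjusted p = 0.199), and it was not called without WT replicate 2 (adjusted p = 0.0594). Elane, which encodes neutrophil elastase, stood at 410 to 581 CPM in WT and at 508 and 543 CPM in TFD, within the WT range. Of 34 secondary and tertiary granule genes, which are made later in maturation, 0 were called higher and 12 lower, with a median log2 change of −0.63. By DESeq2 and at an unadjusted p under 0.05, 0 were higher. The count called lower was 22 without TFD replicate 1 and 4 without TFD replicate 2. The largest called change, that of BC100530, was −2.31 (SE 0.53, adjusted p = 0.00645), −4.33 without TFD replicate 1 and −1.59 without TFD replicate 2. Ltf, which encodes lactoferrin, stood at 7495, 8809 and 5418 CPM in WT and at 5998 and 3604 CPM in TFD, so that TFD replicate 1 lay within the WT range and TFD replicate 2 below it. Its log2 change of −0.59 was not called (SE 0.28, adjusted p = 0.14), and that of Camp, a cathelicidin of the same granules, was −0.48 (SE 0.28, adjusted p = 0.229). Without TFD replicate 1 that of Camp was −1.09 (adjusted p = 0.0186). The summed level of the secondary and tertiary list was 54916 CPM in TFD replicate 1 and 29032 CPM in TFD replicate 2, and 60983 to 77266 CPM in WT.

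Of 20 genes of eosinophils, basophils and mast cells, 5 were called lower and 0 higher, also 0 by DESeq2 and at an unadjusted p under 0.05. Ccr3, the eotaxin receptor, stood at 5.99, 4.21 and 8.77 CPM in WT and at 0.938 and 0.891 CPM in TFD, and it fell 6.88-fold (adjusted p = 0.00448). The eosinophil peroxidase Epx was −0.78 (SE 0.36, adjusted p = 0.128) and the mast cell protease Cpa3 was −0.56 (SE 0.31, adjusted p = 0.197), neither of them called, although Epx was −1.39 and called without TFD replicate 2 (adjusted p = 0.0382).

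**Figure D3:**
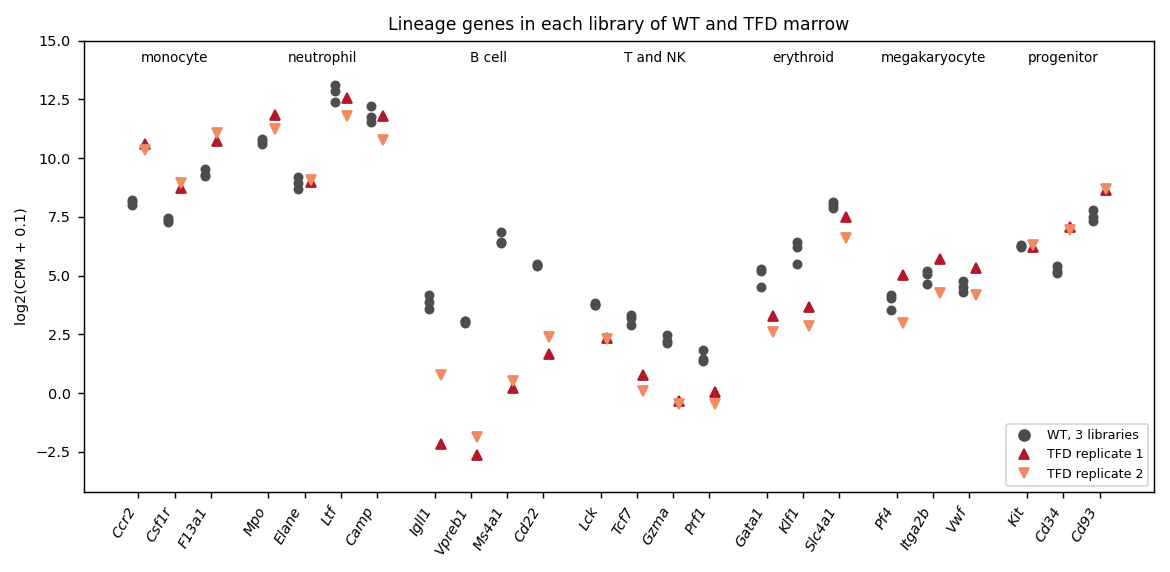
Level of 24 lineage genes as log2(CPM + 0.1) in the 3 WT libraries (gray circles), TFD replicate 1 (red triangles) and TFD replicate 2 (orange inverted triangles). Monocyte genes and Cd34 lie above WT in both TFD libraries, B, T and NK cell and erythroid genes lie below, and the megakaryocyte genes lie above WT in TFD replicate 1 and below it in TFD replicate 2.

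B lineage genes were lower in TFD. B cells are specified by EBF1 and PAX5, rearrange their immunoglobulin genes with the RAG recombinase and signal through the pre-B cell receptor before they express a mature receptor. Of 23 B lineage transcription factors, 13 were called lower and 0 higher, with a median log2 change of −0.88. Of 24 genes of the pre-B cell receptor and recombination, 20 were called lower and 1 higher, with a median log2 change of −3.51. Of 36 mature B cell genes, 28 were called lower and 3 higher, with a median of −2.24. By DESeq2 and at an unadjusted p under 0.05, 0 of the B lineage factors were higher. The genes of the other lists called higher were Spn, which encodes the leukocyte sialomucin CD43, the phospholipase gene Plcg2, Plac8, and Tnfrsf13b, a receptor for BAFF and APRIL.

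Pax5, which holds B cells in their identity, stood at 34.4, 29.3 and 28.7 CPM in WT and had 0 and 3 counts in the TFD libraries, at least 136-fold lower on 3 counts per library. Rag1 (chr2:101638252-101649532) stood at 79.5, 121 and 140 CPM in WT and had 0 and 6 counts in TFD. Vpreb1, a surrogate light chain of the pre-B cell receptor, stood at 8.29, 7.92 and 8.24 CPM in WT and had 1 and 2 counts in TFD, at least 35.8-fold lower. Pax5 and Vpreb1 thus had at most 3 counts in either TFD library. The fitted log2 change of Rag1 was −8.92 (SE 1.18, adjusted p = 0.000196) and ranged from −7.70 without TFD replicate 1 to −13.44 without TFD replicate 2. Ikzf3, which encodes Aiolos, fell 13.1-fold (adjusted p = 0.000441). Cd79b, a signalling chain of the B cell receptor, stood at 95.3, 98 and 127 CPM in WT and at 14.3 and 9.8 CPM in TFD, a log2 change of −3.14 (SE 0.23, adjusted p = 4.63e-06). Igll1, the other surrogate light chain, was at 14.9, 18.1 and 11.9 CPM in WT and at 0.13 and 1.6 CPM in TFD. Its log2 change was −4.24 (SE 0.67, adjusted p = 0.000662), −3.21 without TFD replicate 1 and −6.78 without TFD replicate 2.

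Cr2 (chr1:195136811-195176715), the complement receptor of mature B cells, stood at 37.4, 35.3 and 25.8 CPM in WT and at 0.313 and 0.178 CPM in TFD, a log2 change of −6.94 (SE 0.51, adjusted p = 4.63e-06) and the largest of the mature B cell genes. Ms4a1, which encodes CD20, fell by 6.34 (SE 1.12, adjusted p = 0.00141). Jchain, the joining chain of plasma cells, stood at 650, 608 and 1285 CPM in WT and at 369 and 256 CPM in TFD, a smaller change of −1.44 (SE 0.37, adjusted p = 0.0124) that was not called without TFD replicate 2 (adjusted p = 0.0975). In both TFD libraries Jchain had the highest level of the B lineage genes given here.

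A gene above 0.5 CPM in the 3 WT libraries alone cannot pass the filter on low values, which asks for more than 3 libraries. The genes removed therefore lean toward WT by the rule itself, and their number is no result about TFD. Of the 24 genes that did not exceed 0.5 CPM in more than 3 libraries, 20 had more counts in every WT library than in both TFD libraries. Rag2, the partner of Rag1 and named here after its values were seen, was one of them, with 7.64, 9.9 and 9.49 CPM in WT and 2 and 0 counts in TFD, at least 39.6-fold lower.

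The EBF1 letters CCCNNGGG, which read the same on both strands, were in 2 of the 16 pre-B cell genes with a promoter window (12.5%), and in 13.4% of all windows and 17.6% of the windows of genes tested. The match with the largest change was in Igll1. The stretch covers the 250 bases before the start of the gene, chr16:16863986-16864235 on the minus strand of GRCm38.p6, and the capitals mark the match 231 bases before the start.
Igll1: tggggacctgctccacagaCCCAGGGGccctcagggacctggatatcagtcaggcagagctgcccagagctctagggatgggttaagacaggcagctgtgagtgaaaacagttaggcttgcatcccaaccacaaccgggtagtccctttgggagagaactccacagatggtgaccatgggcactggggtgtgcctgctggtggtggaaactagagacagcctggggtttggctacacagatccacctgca

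Many T and NK cell genes were called lower as well, from low levels in WT. Of 35 T cell genes, 18 were called lower and 0 higher, with a median log2 change of −1.26. By DESeq2 0 were higher, and at an unadjusted p under 0.05 1 was. Lck, the kinase of the T cell receptor, stood at 13.5, 13.2 and 14.2 CPM in WT and at 5 and 4.9 CPM in TFD, a log2 change of −1.46 (SE 0.30, adjusted p = 0.00359). Lef1, a factor of lymphoid precursors and the largest called change of the list, stood at 15.5, 11.5 and 9.85 CPM in WT and at 0.375 and 0.178 CPM in TFD, and it fell 40.9-fold (adjusted p = 2.33e-05). The log2 change of Lef1 was −5.35 and ran from −6.03 to −4.99 with 1 library left out. Tcf7, the T lineage factor TCF1, fell 6.59-fold (adjusted p = 0.000376). Cd3e was −1.45 (SE 0.51) with both TFD libraries below the WT range and was not called (adjusted p = 0.0532), while DESeq2 called it (adjusted p = 0.0243). Of 23 NK cell and cytotoxic genes, 12 were called lower and 1 higher, with a median of −1.25, and the count called lower was 5 without TFD replicate 1 and 7 without TFD replicate 2. Gzma, a granzyme, stood at 4.35, 4.58 and 5.55 CPM in WT and at 0.688 and 0.624 CPM in TFD, and it fell 7.23-fold (adjusted p = 0.000655). Prf1, which encodes perforin, fell 3.63-fold (adjusted p = 0.0039).

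Of 24 genes of plasmacytoid dendritic cells, the interferon-producing cells, 8 were called lower and 2 higher. The largest called change was in Cox6a2, a cytochrome oxidase subunit, which stood at 2.3, 3.09 and 2.69 CPM in WT and had 1 and 0 counts in TFD, at least 11.8-fold lower on 3 counts per library. Siglech, a surface lectin of these cells, stood at 35.5, 42.2 and 42.3 CPM in WT and at 0.5 and 5.26 CPM in TFD. Its log2 change was −3.91 (SE 0.88, adjusted p = 0.00585), −2.92 without TFD replicate 1 and −6.28 without TFD replicate 2. Ly6d and Spib, which B cell precursors also express, were among the genes called lower.

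Many erythroid genes were called lower, in all groups of the lineage. Of 26 erythroid transcription and signalling genes, 14 were called lower and 2 higher, the latter Stat5a and Stat5b, which many cytokine receptors use. Of 18 genes of the list drawn as globin and heme synthesis, which held no globin gene in these data, 15 were called lower and 0 higher, with a median log2 change of −0.96. Of 37 red cell membrane and surface genes, 25 were called lower and 0 higher, with a median of −1.50. By DESeq2 and at an unadjusted p under 0.05, 0 genes of the heme and red cell membrane lists were higher. Without TFD replicate 2 the counts called lower were 9, 7 and 12. The count of regulators called higher was 1 without TFD replicate 1, WT replicate 2 or WT replicate 3 and with the replicate block, and 0 without TFD replicate 2 and in a fit of only WT and TFD.

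Klf1 (chr8:84901928-84905295), the erythroid factor EKLF, stood at 74.6, 45 and 87.4 CPM in WT and at 12.6 and 7.22 CPM in TFD, a log2 change of −2.78 (SE 0.57, adjusted p = 0.00328). Epor, the erythropoietin receptor, stood at 16.8, 17.3 and 24.9 CPM in WT and at 4.19 CPM in both TFD libraries, a log2 change of −2.23 (SE 0.50, adjusted p = 0.00594). For both genes the TFD libraries were below all WT libraries. Car1, a carbonic anhydrase and the largest change of the membrane list, fell 8.52-fold (adjusted p = 0.000812), by −3.09 on the log2 scale, and the change was −3.68 without TFD replicate 1. Hebp1, a heme-binding protein, fell 5.39-fold (adjusted p = 0.00152). Alas2 and Slc4a1, late genes of the lineage, were −0.44 (SE 0.38, adjusted p = 0.434) and −0.88 (SE 0.41, adjusted p = 0.136) and were not called, although Slc4a1 was in a fit of only WT and TFD (adjusted p = 0.0101).

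The GATA letters AGATAA, searched on both strands as AGATAA and TTATCT, were in 3 of the 21 red cell membrane genes with a window (14.3%), in 11.4% of all windows and in 6.46% of the windows of genes tested. The match with the largest change was in Rhd, the Rhesus antigen of red cells, which fell 4.53-fold (adjusted p = 0.00663) and was not called without TFD replicate 2 (adjusted p = 0.0634). Its 250 bases before the start lie at chr4:134864286-134864535 on the plus strand, with the match 43 bases before the start in capitals.
Rhd: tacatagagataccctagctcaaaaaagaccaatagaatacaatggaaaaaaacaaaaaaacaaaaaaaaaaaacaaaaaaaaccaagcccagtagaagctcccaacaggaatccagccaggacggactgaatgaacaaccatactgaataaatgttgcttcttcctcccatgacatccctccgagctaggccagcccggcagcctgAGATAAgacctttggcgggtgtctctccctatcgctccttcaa

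Megakaryocyte genes showed no shared direction. Of 30 tested, 2 were called higher and 3 lower. The count called higher was 0 without TFD replicate 1, WT replicate 1 or WT replicate 2 and with the replicate block, 1 without WT replicate 3 and 6 without TFD replicate 2, and the count called lower was 0 without TFD replicate 2. Rasgrp3, a RAS exchange factor that B cells also express, had the largest called change and fell 5.16-fold (adjusted p = 0.012), a call lost without TFD replicate 1 (adjusted p = 0.0793) or replicate 2 (adjusted p = 0.0554). Pf4, platelet factor 4, stood at 17.9, 11.6 and 16.7 CPM in WT, at 32.5 CPM in TFD replicate 1 and at 7.75 CPM in TFD replicate 2. Itga2b, the platelet integrin chain, stood at 36.6, 24.6 and 34 CPM in WT, at 52.7 CPM in TFD replicate 1 and at 19.3 CPM in TFD replicate 2. For both genes 1 TFD library lay above and the other below all WT libraries, and the log2 changes of 0.39 (SE 0.42, adjusted p = 0.526) and 0.19 (SE 0.35, adjusted p = 0.731) turned to −1.0 and −0.72 without TFD replicate 1. Without TFD replicate 2 they were 1.07, which was called higher (adjusted p = 0.0197), and 0.73, which was not called (adjusted p = 0.0964).

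**Figure D4:**
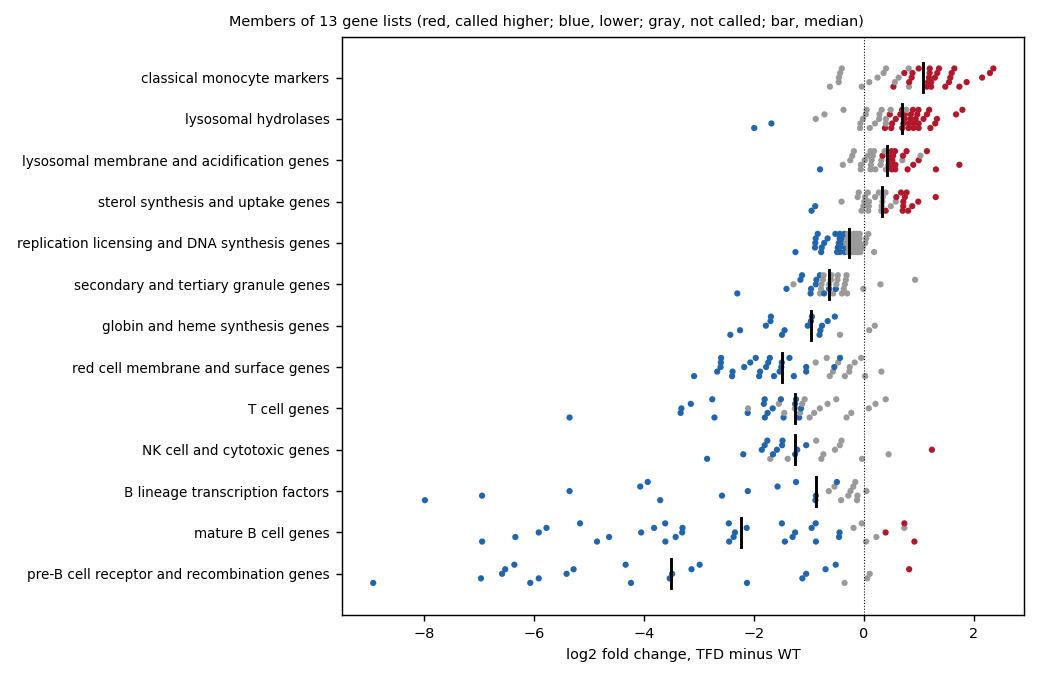
Log2 fold changes between TFD and WT of all tested members of 13 gene lists, 1 point a gene (red, called higher; blue, called lower; gray, not called), with the list's median as a black bar. The medians run from 1.07 for classical monocyte markers to −3.51 for the pre-B cell receptor and recombination genes.

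Most of the lysosomal hydrolases tested were higher in TFD. Lysosomes break down macromolecules with acid hydrolases and are abundant in monocytes and macrophages. Of 50 hydrolases, 31 were called higher and 2 lower, 62% against 14.7% of all genes, with a median log2 change of 0.69. Of 42 genes of the lysosomal membrane and its acidification, 20 were called higher and 1 lower, with a median of 0.42. The count of hydrolases called lower was 1 without either TFD library or WT replicate 3, and that of membrane genes 0 without TFD replicate 2 or WT replicate 2. Psap (chr10:60277628-60302600), which encodes the precursor of the saposins that help degrade sphingolipids, stood at 913, 833 and 814 CPM in WT and at 2625 and 3048 CPM in TFD, a log2 change of 1.73 (SE 0.15, adjusted p = 8.74e-06). Npc2, which carries cholesterol out of the lysosome, stood at 145, 155 and 151 CPM in WT and at 315 and 349.6 CPM in TFD, and it rose 2.21-fold (adjusted p = 1.54e-05). Neither gene had overlapping groups. Lipa, the acid lipase, rose 1.99-fold (adjusted p = 0.000202), and Lamp1, the major membrane glycoprotein, 1.86-fold (adjusted p = 0.000104). The largest change among the hydrolases was a decrease, in Acp5, the tartrate-resistant phosphatase of osteoclasts, which fell 3.99-fold (adjusted p = 0.01) and was not called without TFD replicate 1 (adjusted p = 0.0666) or replicate 2 (adjusted p = 0.0515). The aspartyl protease Ctsd was −0.37 (SE 0.16, adjusted p = 0.1) and was called by DESeq2 (adjusted p = 0.046) and, at −0.71, without TFD replicate 1 (adjusted p = 0.00554). Monocyte markers that the lysosomal lists also hold are Ctss, Cd68 and Psap, and how far the lysosomal change follows monocyte content was not tested.

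The TFEB letters TCACGTGA, a palindrome, were in 3 of the 40 hydrolase genes with a window (7.5%), in 1.01% of all windows and in 2.02% of the windows of genes tested. Of the 3, Ctsd and Gla were not called, and Sumf1, which activates the sulfatases, rose 1.99-fold (adjusted p = 0.000172). The 250 bases before the start of Sumf1 lie at chr6:108185584-108185833 on the minus strand, with the match 12 bases before the start in capitals.
Sumf1: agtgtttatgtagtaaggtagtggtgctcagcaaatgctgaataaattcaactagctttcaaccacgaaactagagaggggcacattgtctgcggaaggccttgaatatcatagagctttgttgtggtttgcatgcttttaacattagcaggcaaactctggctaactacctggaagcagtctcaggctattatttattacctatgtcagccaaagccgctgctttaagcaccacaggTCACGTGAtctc

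Lipid and glycan genes were called higher more often than all genes. Of 43 sphingolipid genes, 13 were called higher and 3 lower, and 7 of the 13 are also on a lysosomal list. Sphk1, which makes sphingosine 1-phosphate, stood at 18.7, 14.2 and 25 CPM in WT and at 1.81 and 1.07 CPM in TFD, a log2 change of −3.70 (SE 0.71, adjusted p = 0.00221). Ugcg, the glucosylceramide synthase, fell by 0.96 (SE 0.13, adjusted p = 0.00018). Of 55 glycosaminoglycan genes, 18 were called higher and 8 lower, the latter 3 without TFD replicate 2 and 5 without WT replicate 2 or 3. Chst3, a chondroitin sulfotransferase, stood at 66.1, 68.4 and 84.8 CPM in WT and at 0.876 and 0.535 CPM in TFD. It fell by 6.63 on the log2 scale (SE 1.0, adjusted p = 0.000488), the largest called change of the list and opposite to most of its calls. Hpse, the heparanase, stood at 34.6, 38 and 32.1 CPM in WT and at 78.6 and 92.5 CPM in TFD, and it rose 2.45-fold (adjusted p = 3.47e-05). Of 34 sterol genes, 12 were called higher and 2 lower, and the first count was 7 without TFD replicate 1, 6 without WT replicate 2 and 7 without WT replicate 3. Abca1, a cholesterol exporter, fell by 0.95 (SE 0.18, adjusted p = 0.00202).

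Of 56 genes of replication licensing and DNA synthesis, 22 were called lower and 0 higher, 39.3% against 11.6% of all genes, and 34 were not called. The median log2 change was −0.27. By DESeq2 and at an unadjusted p under 0.05, 0 were higher. The count called lower was 12 without TFD replicate 1, 14 without WT replicate 3 and 12 in a fit of only WT and TFD. Ccne1, which encodes cyclin E1, stood at 60.8, 45 and 57.2 CPM in WT and at 24.1 and 21.7 CPM in TFD, a log2 change of −1.25 (SE 0.24, adjusted p = 0.00229). Orc1, a subunit of the origin recognition complex, stood at 34.9, 34.8 and 32.9 CPM in WT and at 17.9 and 19.2 CPM in TFD, a log2 change of −0.88 (SE 0.18, adjusted p = 0.00326). The groups of both genes did not overlap. Mcm5, a subunit of the replicative helicase, was −0.18 (SE 0.12, adjusted p = 0.312). Of 45 genes of G2 and mitosis, 5 were called lower and 1 higher, both below the shares over all genes, and the count called lower was 3 without WT replicate 3 and 2 in a fit of only WT and TFD. Without TFD replicate 1, 2 were called higher. The gene called higher was Racgap1, a regulator of cytokinesis, which rose 1.7-fold (adjusted p = 0.000707). Mki67, which marks cycling cells, stood at 2869, 2989.5 and 3054 CPM in WT and at 2142 and 2261 CPM in TFD. Its log2 change of −0.43 was not called (SE 0.16, adjusted p = 0.0573), while DESeq2 called it (adjusted p = 0.00417). Of 56 replication-dependent histone genes, 3 were called lower and 0 higher, the latter also by DESeq2, and 1 was higher at an unadjusted p under 0.05. The histone count called lower was 6 by DESeq2 or with the length correction, 5 with the sex term, 25 without TFD replicate 1, 0 without TFD replicate 2 and 1 without WT replicate 2, and 4 were called higher without TFD replicate 2. Hist3h2ba, an H2B gene, had the largest called change, −0.84 (SE 0.20, adjusted p = 0.008), which was −0.57 and not called without TFD replicate 2 (adjusted p = 0.0773).

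The E2F letters TTTNNCGC, searched on both strands, were in 18 of the 46 replication genes with a window (39.1%), in 5.27% of all windows and in 8.6% of the windows of genes tested. Of the 18 genes, 6 were called lower and 0 higher, beside 22 and 0 of the 56 genes of the whole list, and Orc1 had the largest change. Its 250 bases before the start lie at chr4:108579204-108579453 on the plus strand, and the capitals mark the reverse complement of the motif 27 bases before the start.
Orc1: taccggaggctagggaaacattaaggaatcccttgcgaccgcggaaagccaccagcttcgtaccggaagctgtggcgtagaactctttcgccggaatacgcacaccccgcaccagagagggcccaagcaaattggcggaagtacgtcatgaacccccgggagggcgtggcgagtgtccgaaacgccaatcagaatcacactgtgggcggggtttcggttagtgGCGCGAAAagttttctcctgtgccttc

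Targets of STAT5, the transcription factor downstream of FLT3-ITD, went in both directions. Of 30 genes of FLT3 and STAT5 signalling, 9 were called higher and 7 lower, and the latter count was 2 without TFD replicate 1 or WT replicate 1, 3 without TFD replicate 2 and 4 without WT replicate 2 or with a replicate block. Socs2 (chr10:95411490-95416857), a feedback inhibitor of cytokine receptors, stood at 2.22, 2.23 and 3.31 CPM in WT and at 26.1 and 36.9 CPM in TFD. Cish, a related inhibitor, stood at 2.79, 2.85 and 2.24 CPM in WT and at 8.69 and 12 CPM in TFD. Both TFD libraries were above all WT libraries for these genes. The log2 change of Socs2 was 3.59 (SE 0.20, adjusted p = 6.36e-07) and that of Cish 1.98 (SE 0.25, adjusted p = 0.000139). Pim1, a survival kinase, was 0.60 higher (SE 0.17, adjusted p = 0.0227) and was not called without TFD replicate 2 (adjusted p = 0.186) or WT replicate 2 (adjusted p = 0.0775). Of 24 feedback genes of RAS and ERK, 3 were called higher and 8 lower, and the latter count was 4 without TFD replicate 1, 5 without TFD replicate 2, and 5 without WT replicate 1 or 2. Dusp4, an ERK phosphatase with the largest called change of the list, fell 4.15-fold (adjusted p = 0.0268), on 6 counts in each TFD library, and the call was lost without either TFD library (adjusted p = 0.155 and 0.0698) and without WT replicate 1 or 3 (adjusted p = 0.0652 and 0.0609). Dusp6, a phosphatase of ERK, was −0.66 (SE 0.22, adjusted p = 0.0463) and was not called without TFD replicate 2 (adjusted p = 0.311) or any one of the WT replicates (adjusted p from 0.0532 to 0.115), nor with the replicate block (adjusted p = 0.075).

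Among 42 cytokine receptor genes, 15 were called higher and 7 lower. The largest called change was that of Il7r, the interleukin 7 receptor chain of lymphocytes and their precursors, which stood at 52.8, 67.7 and 70.8 CPM in WT and at 4.38 and 7.13 CPM in TFD and fell 11.2-fold (adjusted p = 0.000537). Il3ra, the interleukin 3 receptor chain, stood at 13.5, 7.8 and 9.67 CPM in WT and at 22.6 and 23 CPM in TFD, and it rose 2.18-fold (adjusted p = 0.00095). Il10ra rose 1.72-fold (adjusted p = 0.00273). Csf2ra, the receptor chain for GM-CSF, rose 1.55-fold (adjusted p = 0.00666) and was not called without TFD replicate 1 (adjusted p = 0.0881). Of 34 cytokine and chemokine genes, 11 were called higher and 7 lower, the former 6 without TFD replicate 1 and the latter 1 without TFD replicate 2, 2 without WT replicate 1 and 4 without WT replicate 3. Cxcl2, a chemokine that attracts neutrophils, stood at 92.9, 55.9 and 71 CPM in WT and at 11.8 and 12.5 CPM in TFD, a log2 change of −2.60 (SE 0.23, adjusted p = 1.23e-05). Ccl9, a chemokine of myeloid cells, stood at 92.8, 82.2 and 64.2 CPM in WT and at 212 and 219 CPM in TFD, a log2 change of 1.43 (SE 0.14, adjusted p = 2.76e-05). These changes had opposite directions and neither gene had overlapping groups.

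Of 47 Toll-like receptor and inflammasome genes, 15 were called higher and 2 lower, the latter 1 without TFD replicate 2, WT replicate 1 or WT replicate 3. Tlr4, the endotoxin receptor, fell by 0.82 (SE 0.16, adjusted p = 0.00293), and Tlr2 was −0.20 (SE 0.20, adjusted p = 0.513). Nlrp1b, an inflammasome sensor, stood at 9.61, 8.79 and 8.06 CPM in WT and at 53.3 and 24.5 CPM in TFD, a log2 change of 2.15 (SE 0.26, adjusted p = 0.000117) that was 1.47 without TFD replicate 1. Of 52 genes that type I interferon induces, 8 were called higher and 3 lower, 15.4% and 5.77% against 14.7% and 11.6% of all genes. The first count was 4 without TFD replicate 2 or WT replicate 1, and the second 0 without TFD replicate 1 and 1 without WT replicate 3. The second was 5 by DESeq2 and 6 with the sex term or in a fit of only WT and TFD. Ifi44, which had the largest called change, rose 5.94-fold (adjusted p = 0.0446) but was not called by DESeq2 (adjusted p = 0.0779), with the replicate block (adjusted p = 0.0751) or without any one library (adjusted p from 0.0555 to 0.189). Mx1, whose promoter drives the Cre transgene, stood at 10.5, 19.1 and 16.5 CPM in WT and at 27.8 and 37.9 CPM in TFD, and it rose 2.15-fold (adjusted p = 0.00441). Isg15, a ubiquitin-like protein of the response, was −0.70 (SE 0.55, adjusted p = 0.378) and was not called.

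Adhesion genes also differed. Of 39 integrin and adhesion genes, 12 were called higher and 3 lower, the latter 1 without TFD replicate 2. Itgb7, the gut-homing integrin chain, stood at 97.8, 79.6 and 92.9 CPM in WT and at 345 and 389 CPM in TFD, a log2 change of 2.02 (SE 0.14, adjusted p = 2.73e-06). Itga1, a collagen receptor chain, rose 4.14-fold (adjusted p = 0.00017). The largest called change of the list was a decrease, in the integrin chain Itga9, which stood at 7.39, 7.55 and 11 CPM in WT and at 1.5 and 1.34 CPM in TFD and fell 6.04-fold (adjusted p = 0.00769). Of 59 chemokine and other G protein-coupled receptors of leukocytes, 15 were called higher and 16 lower. Cxcr5, the receptor that guides B cells to follicles, had the largest called change, from 12.2 to 19.8 CPM in WT to 0.5 and 0.356 CPM in TFD, and it fell 35.8-fold (adjusted p = 0.000197). S1pr1, the receptor that lets lymphocytes leave tissues along sphingosine 1-phosphate, stood at 32.1, 25.1 and 34.6 CPM in WT and at 2.81 and 1.78 CPM in TFD, a log2 change of −3.70 (SE 0.54, adjusted p = 0.000367). Cxcr4, which holds cells in the marrow, was at 0.08 (SE 0.15, adjusted p = 0.727). Of 36 complement and coagulation genes, 10 were called higher and 4 lower, and the first count was 6 without TFD replicate 1 and the second 2 without TFD replicate 2 or WT replicate 1 and 7 by DESeq2. Among 21 genes of the BCL2 family, 4 were called higher and 4 lower. Without WT replicate 2 or 3, or with the length correction, the count called higher was 2, and the count called lower was 1 without TFD replicate 1 and 2 without WT replicate 1 or with the replicate block. Bcl2l14 had the largest called change, from at most 0.411 CPM in WT to 2.31 and 2.14 CPM in TFD, and it rose 6.9-fold (adjusted p = 0.00154). Bcl2 itself stood at 38.8, 39 and 47 CPM in WT and at 75.4 and 96.5 CPM in TFD, and it rose 2.06-fold (adjusted p = 0.000135).

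Some of the best supported genes belonged to no list. By the smallest p among genes of at least 3 mean log2 CPM, these included Apba1, an adaptor protein known from synapses, which stood at 20.3, 17.5 and 21.1 CPM in WT and at 83.8 and 94.5 CPM in TFD (log2 change 2.18, SE 0.12, adjusted p = 6.36e-07). Ptpro, a receptor tyrosine phosphatase, stood at 33.9, 36.6 and 34.8 CPM in WT and at 126 and 152 CPM in TFD (1.98, SE 0.12, adjusted p = 9.11e-07). Met, the receptor for hepatocyte growth factor, stood at 38.9, 49.5 and 46 CPM in WT and at 134 and 161 CPM in TFD (1.72, SE 0.12, adjusted p = 4.63e-06). In all 3 the spread between libraries of a genotype was small beside the difference, which a choice by the smallest p favors. Coro2a, an actin-binding coronin, rose 4.25-fold, Tifab, an inhibitor of TRAF6 signalling, rose 4.02-fold, and Anxa6, a membrane-binding annexin, rose 2.53-fold, each with an adjusted p of 4.63e-06. On the other side, Trib2, a pseudokinase, stood at 73.2, 76.7 and 104 CPM in WT and at 1.75 and 1.16 CPM in TFD (−5.82, SE 0.59, adjusted p = 3.03e-05). Lig4, the ligase of DNA end joining, fell 3.59-fold (adjusted p = 2.89e-05). Gpam, an enzyme of triglyceride synthesis, fell 2.76-fold (adjusted p = 3.97e-05), Bcl7a, a subunit of SWI/SNF complexes, fell 3.43-fold (adjusted p = 1.7e-05), and Plscr1, a phospholipid scramblase that interferon induces, fell 2.39-fold (adjusted p = 4.79e-05).

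Most genes of the housekeeping lists were not called. Of 78 oxidative phosphorylation genes, 3 were called higher and 1, Cox6a2, lower, and of 83 cytosolic ribosomal protein genes, 3 were called higher and 0 lower, with 1 ribosomal gene lower by DESeq2 and 1 at an unadjusted p under 0.05. Rps9 had the largest called change of the ribosomal genes, 0.53 (SE 0.14, adjusted p = 0.013), and was not called without TFD replicate 1 (adjusted p = 0.0647) or in a fit of only WT and TFD (adjusted p = 0.0514). Of 27 glycolysis genes, 3 were called higher and 4 lower, and the lactate transporter Slc16a1 fell 2.58-fold (adjusted p = 0.000453), the largest called change. Among 22 genes of DNA methylation, 3 were called higher and 1 lower, with Dnmt1 at 0.05 (SE 0.12, adjusted p = 0.815). The isocitrate dehydrogenase Idh1 had the largest called change of that list and rose 1.83-fold (adjusted p = 0.000268). Among 33 polycomb genes, 2 were called higher and 1 lower, and Phf19, an accessory subunit of PRC2, rose 1.85-fold (adjusted p = 0.00121), the largest called change. These shares were at or below those over all genes, except that of glycolysis genes called lower, 14.8%. Some of these small counts moved by more than 1.5 times in other settings. The polycomb count called lower was 3 by DESeq2, 4 with the sex term and 0 without TFD replicate 1 or WT replicate 3. The DNA methylation count called lower was between 0 and 2. In a fit of only WT and TFD, 1 oxidative phosphorylation gene and 0 ribosomal genes were called higher. Without TFD replicate 1, 0 oxidative phosphorylation and 0 ribosomal genes were called higher and 5 oxidative phosphorylation genes lower, and without TFD replicate 2 the counts called higher were 5 and 7. Without TFD replicate 2, 2 glycolysis genes were called lower. With the sex term or without WT replicate 1, 6 glycolysis genes were called higher, and without WT replicate 1 also 5 oxidative phosphorylation genes lower.

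Markers of cells that marrow samples can carry along were low or moved in no shared direction, except those of osteoclasts. Of 9 endothelial genes tested, 2, Tie1 and Flt1, were called higher and 0 lower, the latter also 0 by DESeq2 and at an unadjusted p under 0.05, and their summed level was 117 to 128 CPM in WT and 144 and 122 CPM in TFD. Neither Tie1 (adjusted p = 0.373) nor Flt1 (adjusted p = 0.0677) was called without TFD replicate 1, and Tie1 was not called without any one of the WT replicates either (adjusted p from 0.0519 to 0.0922), nor with the replicate block (adjusted p = 0.0656). The defining genes Cdh5 and Kdr were at most 3.22 CPM in every WT and TFD library and were not called (adjusted p = 0.416 and 0.81). Of 12 osteoblast and stromal genes, 1, the pericyte receptor Pdgfrb, was called higher, 2 without TFD replicate 2, and 0 lower, also 0 by DESeq2 and at an unadjusted p under 0.05, and Col1a1, at 5.2 to 15.5 CPM in WT and 6.75 and 6.33 CPM in TFD, was not called (adjusted p = 0.513). Of 7 osteoclast markers, 3 were called lower and 1 higher, 42.9% and 14.3% against 11.6% and 14.7% of all genes. The summed level of the list was 1505.5 to 1702.4 CPM in WT and 1050 and 541 CPM in TFD. The 3 called lower, Car2, Acp5 and Ctsk, are also made by red cell precursors or macrophages. Ctsk was not called without TFD replicate 1 (adjusted p = 0.166) or WT replicate 3 (adjusted p = 0.0695). Of 4 muscle and fat genes tested, 1 was called lower and 0 higher, the latter also 0 by DESeq2 and at an unadjusted p under 0.05 and 1 with the replicate block. Mylpf, a muscle myosin light chain, stood at 2.3, 2.35 and 2.78 CPM in WT and at 0.938 and 0.446 CPM in TFD, and it fell 3.42-fold (adjusted p = 0.0169), a call lost without TFD replicate 2 (adjusted p = 0.103). The log2 change of Mylpf was −1.77 and ran from −2.45 to −1.39 with 1 library left out. Ckm, Acta1 and Adipoq were not among the genes of the table.

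**Figure D5:**
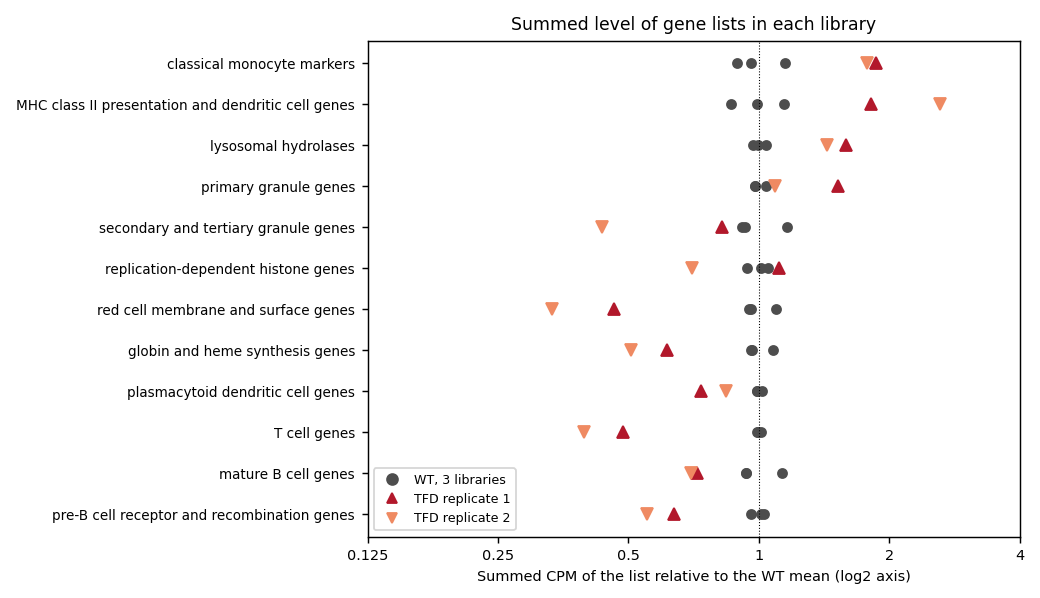
Summed CPM of 12 gene lists in each library, divided by the mean of the 3 WT libraries, on a log2 axis (gray circles, WT; red triangles, TFD replicate 1; orange inverted triangles, TFD replicate 2). Both TFD libraries are above WT for monocyte and lysosomal genes and below it for red cell, T cell and B cell genes, and they lie apart for secondary and tertiary granule genes, at 54916 and 29032 CPM, and for histone genes.

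The TFD libraries were also compared with the double mutants. In the same fit, TFD was set against the mean of DF and TF, and 2 of the 12175 genes were called, Skint3 and Mmel1. Skint3 stood at 17.1 and 26.3 CPM in TFD and at 9.4 to 15.1 CPM in DF, and it had 0 CPM in the TF libraries. Of all genes, 996 had an unadjusted p under 0.05, and DESeq2 called 66 genes. The count was 146 without TFD replicate 1 and 13 without TFD replicate 2. The call of Mmel1 was lost with the replicate block (adjusted p = 0.0883). For the genes on which the account above turns, the difference between TFD and the mean of the double mutants was −0.19 for Ccr2 (adjusted p = 0.799), 0.27 for Psap (adjusted p = 0.629), 0.18 for Socs2 (adjusted p = 0.791), −0.25 for Cr2 (adjusted p = 0.95) and 0.22 for Klf1 (adjusted p = 0.933), on the log2 scale. None of these passed the test, which with 2 TFD libraries does not show that the genotypes are alike. A mean of DF and TF also hides differences between them. Klf1 stood at 2.57 to 3.25 CPM in DF, at 9.13, 16.4 and 49.3 CPM in TF, and at 12.6 and 7.22 CPM in TFD.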

How the data were processed

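BM RNA was depleted of globin RNA and sequenced from libraries of a stranded total RNA kit. The authors aligned reads to mm10 with STAR, keeping unique alignments, and counted them per gene with featureCounts. Versions and the use of strand in counting are not given in the sources used here. The deposited table holds raw counts of 11 libraries for 12199 genes. The study's methods state a filter on low CPM, and 24 genes of the table do not pass it over these libraries. The log2 CPM values deposited beside the counts were made by the authors from the same counts and were not used. The summed exon length that the authors deposited for each gene served the length correction.

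Genes above 0.5 CPM in more than 3 of 11 libraries were tested, 12175 of 12199. Counts were scaled by TMM factors and fitted with edgeR 4.0.16 (quasi-likelihood, limma 3.58.1, R 4.3.3) with 1 mean per genotype, and calls were made at a Benjamini-Hochberg adjusted p under 0.05. The SE is the log2 change divided by the square root of the F statistic. DESeq2 1.42.0, which the study used, was an alternative, as were other scalings, no filter, a fit of only the groups compared, a 2-fold minimum, a gene length correction, a sex term, a replicate block and leaving out each library. Where a TFD library was left out, the other was assumed to vary like the other genotypes. Total counts of 8274153 to 15496378 set the precision of low genes. A group with 3 counts or fewer in each library was set to 3 counts for a lower bound. The procedure was tested on simulated data of 12175 genes with the sizes of these libraries. For TFD against WT it recovered 77 of 100 genes changed by 1 on the log2 scale and 96 of 100 changed by 2, with 10 false calls. The simulated spread depended only on a gene's level and was the same in every genotype. Genes of the lowest levels were not among those changed. The TFD libraries here lay further apart than the WT libraries, so these figures hold for the simulated setting only.

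Named genes were the chosen representatives of each list, the called member of each list with the largest change, the 12 called genes with the smallest p in each direction among those whose mean log2 CPM reached 3, and the targeted genes. The rule chose 186 genes, and the text gives those needed to describe each group. Some are not reported here. Fn1, Cx3cr1, Klf4, Cebpa, Irf5, H2-DMa and H2-Ob, and the promoter examples S100a4, Rhd, Sumf1 and Orc1, were added after their values were seen, and so were genes given only as the few exceptions of a list. The comparison, the lists and the rule were chosen with earlier results of these data known, and the lists are described by counts only. Promoter sequences are from RefSeq (GRCm38.p6), from which 27025 windows were searched.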

Additional observations from a re-analysis of the deposited data

Results flagged for a closer look

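TFD differed from the mean of the DF and TF double mutants in the test of that difference for 2 genes. For Skint3, a member of an immunoglobulin-like family of epithelial genes, the log2 difference was 5.93 (edgeR quasi-likelihood test, adjusted p = 0.00177), with 17.1 and 26.3 CPM in the TFD libraries and 3.53 to 8.68 CPM in WT. The DF libraries stood at 11.5, 15.1 and 9.4 CPM and the TF libraries all at 0, so that the fitted value rests on the 0 counts of TF and is neither a size nor a bound. For Mmel1, which encodes a membrane metalloendopeptidase, it was 3.08 (adjusted p = 0.0227), with 2.56 and 2.76 CPM in TFD and at most 0.358 CPM in WT, 0.159 to 0.198 CPM in DF and 0.404 to 0.573 CPM in TF. The Mmel1 call was lost with the replicate block (adjusted p = 0.0883).

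Among the genes removed by the filter on low values, Gm6682 had 25 counts in TFD replicate 1 and 20 counts in TFD replicate 2, against 4, 1 and 6 counts in WT. It was outside the comparison and was not tested. No group had 4 libraries, so single libraries were not examined for outlying values.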

How the results depend on the processing

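Counts of genes higher and lower in TFD than in WT stayed within 1.5 times of 1789 and 1416 under 8 of the 9 alternatives that kept all libraries. A minimum of 2-fold gave 705 and 645. Leaving out 1 library in turn gave 1324 to 1595 higher and 935 to 1241 lower, the lowest count higher without TFD replicate 1 and the lowest count lower without TFD replicate 2. The share of higher among called genes ran from 51.66% with DESeq2 to 61.04% without TFD replicate 2 and was 55.82% as reported. Genes differing between TFD and the mean of DF and TF numbered 66 with DESeq2, 5 with a sex term, 1 with the replicate block and 2 to 146 with 1 library left out, and the cause was not tested. The replicate block gave 1566 genes higher and 1156 lower than WT. Replicate numbers are shared only in name, and the deviations of TFD and WT libraries with the same number correlated at 0.249 and 0.054.

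Of the 112 called genes given with a fold change, 81 were called in every setting run and 0 reversed. Of the others 21 were below the 2-fold minimum, and 19 lost the call in some other setting, with genes in common. The 2-fold minimum moved 47 of 96 list counts by over 1.5 times. Of 27 genes not called, 11 were called in some setting and 6 reversed. Kit was 0.0025 on library totals, 0.019 with the length correction, 0.0019 with the sex term, 0.0093 with the replicate block and −0.030 to 0.029 with 1 library left out. Kdr was 0.35 with the replicate block and −0.67 to 0.083 with 1 library left out. With 1 library left out Elane ran from −0.027 to 0.22, Pf4 from −1.0 to 1.07, Itga2b from −0.72 to 0.73 and Dnmt1 from −0.013 to 0.14. The difference from the double mutants ran from −0.061 to 0.41 for Socs2, −0.74 to 0.053 for Cr2 and −0.26 to 0.57 for Klf1. The cause of these changes was not tested. Genes at the detection limit in TFD have only a bound, and 2 TFD libraries limit all comparisons.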

Other observations

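The 5 genes of the heat shock response given here were chosen after their values were seen, except Hspa1b, which had the largest called change of the AP-1 and immediate early genes, and no heat shock list was counted. Hsp90aa1, the inducible cytosolic chaperone, stood at 1373, 1145 and 1195 CPM in WT and at 502 and 557 CPM in TFD, and it fell 2.34-fold (edgeR, adjusted p = 0.000394). Hspa8, the constitutive HSC70, stood at 3303, 2727 and 2259 CPM in WT and at 1309 and 1594 CPM in TFD, and it fell 1.9-fold (adjusted p = 0.00486). The stress-inducible Hspa1b stood at 53.5, 33 and 22.6 CPM in WT and at 1.69 and 2.58 CPM in TFD, a log2 change of −4.12 (SE 0.49, adjusted p = 9.89e-05). Hsph1, an exchange factor of the HSP70 proteins, fell 7.28-fold (adjusted p = 0.00106). Hspa5, the chaperone of the endoplasmic reticulum, fell 1.53-fold (adjusted p = 0.00998) and was not called without TFD replicate 1 (adjusted p = 0.0758). In each of these genes both TFD libraries lay below all WT libraries. WT replicate 1 was the highest of the WT libraries for all 5.

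Scd1, which introduces a double bond into fatty acids and was also chosen after its values were seen, stood at 130.1, 134 and 90.2 CPM in WT and at 1.81 and 1.96 CPM in TFD, a log2 change of −5.97 (SE 0.77, adjusted p = 0.000168). Nov, a secreted matrix protein, had 0 counts in all WT libraries and stood at 8.94 and 36.8 CPM in TFD. Several genes stood apart between the TFD libraries. Cwc22, a splicing factor, was at 546 CPM in TFD replicate 1 and at 50.3 CPM in TFD replicate 2, with 42.7 to 47.7 CPM in WT. Rprl3, a copy of the RNase P RNA gene that shares sequence with other copies, was at 226 CPM in TFD replicate 1, 0.535 CPM in TFD replicate 2 and at most 0.495 CPM in WT.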
